A study of Mus musculus with 3 samples.

Results

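The subject is the RNA content of wild-type mouse hepatic stellate cells in culture, read from 1 library and described gene by gene in order of abundance. All 16811 genes that the wild-type table lists were ranked by FPKM, fragments scaled by transcript length and library size, and by their share of the expected counts, estimates of read number that are called reads below. The library is 1 of 3 in the series, which also holds TLR4-/- and CD44-/- cells, and only the wild-type library was analysed here. Per the labels, the cells came from male C57BL/6 mice aged 24 weeks by enzymatic digestion of the liver and a Nycodenz gradient, and macrophages were removed with magnetic beads against Cd11b. They were cultured for 3 days with 10% serum and then for 24 h without it, so every value below belongs to a serum-deprived primary culture. The sources used here do not say whether animals or wells were pooled. There are no replicates, so no value has a replicate error and no test was run. Intervals are exact 95% intervals of the read count and cover counting error only.

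Hepatic stellate cells are the pericytes of the liver sinusoid and store vitamin A as retinyl ester in lipid droplets. After injury, or on plastic, they lose these droplets, gain contractile filaments and secrete the fibrillar and basement membrane proteins of scar tissue. The genes that mark the storing state, the contractile state and the matrix-producing state are therefore the usual yardsticks for such a culture.

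The library held 24078669 expected counts, and its FPKM values summed to 436960. The 5 genes given as markers of the cells all stood above 100 FPKM, where 734 of the 16811 listed genes stood. Dcn, the collagen-binding proteoglycan decorin, had 2614 FPKM (2599 to 2629) and Col1a1, the major chain of type I collagen, had 588 FPKM (584 to 593). Acta2, smooth muscle actin, had 235 FPKM (231 to 239), Pdgfrb, the PDGF receptor beta chain, had 178 FPKM (176 to 181), and Des, the muscle filament protein desmin, had 105 FPKM (102 to 108). The label of stellate cells thus fitted the markers. The labelled sex fitted as well: the Y-linked genes Eif2s3y, Ddx3y, Kdm5d and Uty had 21.2, 11.6, 5.91 and 4.32 FPKM, and Xist, the RNA of the inactive X, had 0.04 FPKM. RNA from a whole culture is a sum over cells, so fewer cells of a type and less RNA per cell cannot be told apart in any value here.

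Short upstream sequences of RefSeq (GRCm38.p6) are shown first for the genes on which the description of cell state turns, with the matched motif in capitals. The retinoic acid response element with a spacer of 5 bases is a direct repeat bound by retinoic acid receptors with their RXR partners. It was searched on both strands in the 250 bases before each annotated start and was found in 29 of 32851 windows (0.0883%). Among listed genes with a window it was found in 7 of 13092, and in 4 of the 9405 with at least 1 FPKM. Rarb, a retinoic acid receptor gene, and Cyp26a1, a retinoic acid-degrading enzyme, are textbook carriers of this element, and they stood at 60.2 FPKM and 0.30 FPKM. The third sequence is that of Blvrb, biliverdin reductase B, which at 165 FPKM was the most abundant listed gene with a match.
Rarb, chr14:16575506-16575535, minus strand: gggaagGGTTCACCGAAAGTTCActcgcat
Cyp26a1, chr19:37697770-37697799, plus strand: taaagaTGAACTTTGGGTGAACTaatttgt
Blvrb, chr7:27452388-27452417, plus strand: gaactaaccttTGAACTGGCTTTGAACTca
These matches are at bases -53 to -37, -32 to -16 and -19 to -3 from the annotated starts. A match describes the letters and shows no binding, and the same element stood beside a gene of moderate level and beside one near the lower end of the table.

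The CArG box is the sequence read by serum response factor in contractile genes. With up to 1 mismatch allowed among its 6 central A or T bases, it was found in 8.59% of all windows and in 9.38% of genes with at least 1 FPKM. Acta2 held a pair of them, the classical boxes of the smooth muscle actin promoter.
Acta2, chr19:34255438-34255467, minus strand: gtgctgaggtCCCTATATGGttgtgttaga
Acta2, chr19:34255388-34255417, minus strand: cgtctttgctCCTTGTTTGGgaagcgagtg
The first lies at -84 to -75 and the second at -34 to -25. Srf, the factor itself, had 21.0 FPKM and Mrtfa, its actin-sensing cofactor, had 20.1 FPKM, while Myocd, the cofactor of differentiated smooth muscle, was not listed.

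Among the 100 genes of highest FPKM, 80 had a RefSeq window, and 5 of these 80 (6.25%) had TATAAA on the plus strand at -40 to -20. The share was 1.91% over all windows and 1.21% over genes with at least 1 FPKM. The 5 genes are Vim (the intermediate filament vimentin), Ppia (a prolyl isomerase), Gstm1 (a glutathione S-transferase), H2-D1 (a class I histocompatibility chain) and Ecm1 (an extracellular glycoprotein), which make up a mixed group by function.
Vim, chr2:13574267-13574296, plus strand: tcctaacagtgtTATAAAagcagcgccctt
Ppia, chr11:6415826-6415855, plus strand: gcccgaaccgggTATAAAggaagccgcggc
Gstm1, chr3:108017831-108017860, minus strand: tctagtagtctgTATAAAgtcacaactcca
H2-D1, chr17:35263056-35263085, plus strand: gcggacgctggtTATAAAgtccacgcaacc
Ecm1, chr3:95739579-95739608, minus strand: cgggagatagcaTATAAAgagagacagaca
CCAAT, searched on both strands over the 250 bases, was found in 35% of these 80 genes and in 33.8% of all windows. Counted by gene, as for the 80, it was found in 39.9% of listed genes and in 40.8% of genes with at least 1 FPKM. GGGCGG was found in 58.8% of the 80 genes, in 32.7% of all windows and in 65.2% of genes with at least 1 FPKM. Ftl1, the gene of highest FPKM in the library, encodes the ferritin light chain, and its first 120 upstream bases hold the CCAAT letters on the opposite strand at -78 and at -34.
Ftl1, chr7:45459887-45460006, minus strand: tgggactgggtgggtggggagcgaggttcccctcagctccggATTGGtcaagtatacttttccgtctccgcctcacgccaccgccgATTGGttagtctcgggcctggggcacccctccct

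The transcriptome was broad with a steep head. The median listed gene had 5.49 FPKM and 368 reads, 11854 genes had at least 1 FPKM, 6391 had at least 10, and 32 had at least 1000. Counts of list members past a level, given below, are to be read against these counts over all 16811 listed genes. Those 32 genes held 13.03% of the FPKM sum, and the first 506 genes held 50% of it. Ferritin light chain alone held 1.56% of it (Ftl1, chromosome 7, 45457944 to 45459886), with 6808 FPKM (6774 to 6841). The rest of the leading 10 mixed housekeeping and matrix genes. Eef1a1, which brings transfer RNA to the ribosome, had 3661 FPKM, and Igfbp7, a secreted insulin-like growth factor-binding protein, had 2986 FPKM. Sparc, a collagen-binding matrix glycoprotein, had 2937 FPKM, and Fth1, the ferritin heavy chain, had 2802 FPKM. Behind Dcn came Rplp1, a ribosomal stalk protein, with 2136 FPKM, and Bgn, the proteoglycan biglycan, with 2093 FPKM. Gapdh of glycolysis had 1944 FPKM and Rps2 of the small ribosomal subunit had 1778 FPKM. Genes of matrix proteins thus filled 4 of the first 10 places.

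**Figure D1:**
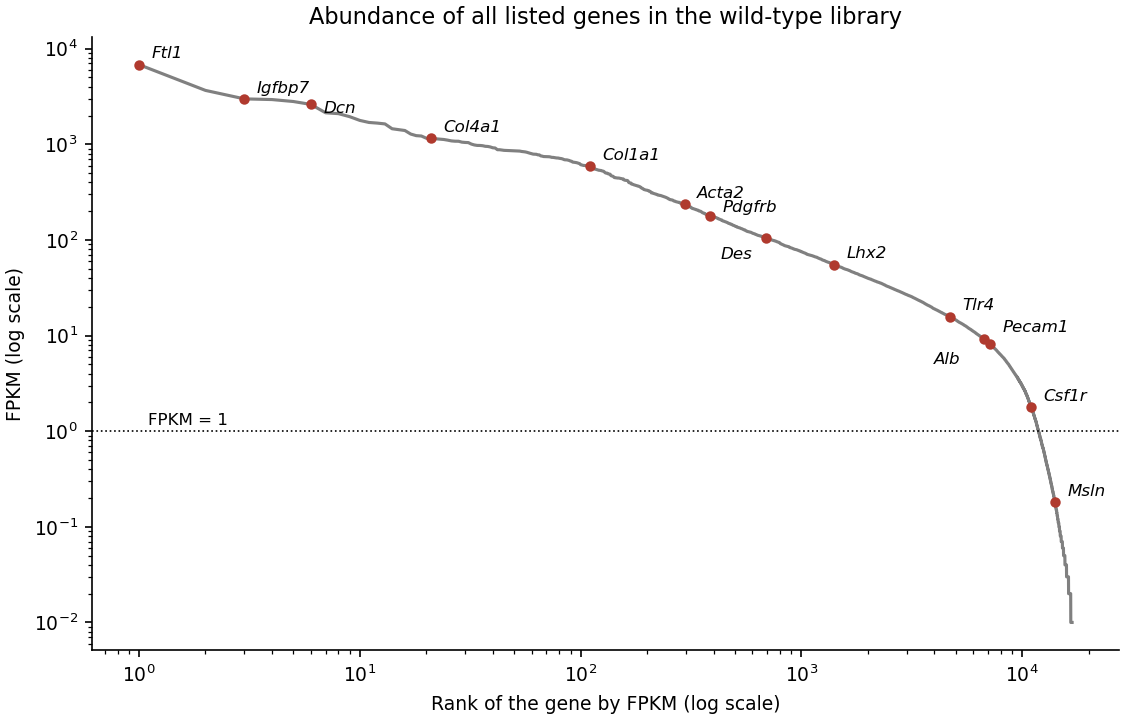
FPKM of every listed gene against its rank in the wild-type library, both on log scales, with named genes as red points and 1 FPKM as a dotted line. The curve falls from 6808 FPKM for Ftl1 through 588 FPKM for Col1a1 and 15.8 FPKM for Tlr4 to 0.01, the lowest value listed.

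Ranking by reads put long matrix transcripts first. Col4a1, the alpha 1 chain of basement membrane collagen (chromosome 8, 11198423 to 11312889), led with 186281 reads, 0.774% of the library, and stood at rank 21 by FPKM. Sparc followed with 162584 reads, Ftl1 with 158216, Eef1a1 with 157086 and Lrp1, a very large endocytic receptor, with 122234. Lrp1 stood at rank 5 by reads and at rank 194 by FPKM. The shift followed transcript length: the 100 genes of highest FPKM had a median length of 949 bases, the 100 of most reads 2756 bases, and 46 genes were in both sets. Core matrix genes (collagens, proteoglycans and matrix glycoproteins) made up 10 of the first 100 by FPKM and 22 of the first 100 by reads. Cytosolic ribosomal proteins made up 46 by FPKM and 3 by reads. Further long matrix or cytoskeletal transcripts among the first 30 by reads were Col4a2 with 98160 reads, Prelp with 74088, Myh9 (non-muscle myosin) with 66490, Flna (the actin crosslinker filamin A) with 62492 and Reln (reelin) with 58431.

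By gene class, the largest named block of the FPKM sum was the translation machinery, and matrix and secreted products together came next to it. Cytosolic ribosomal proteins, 86 genes with a median of 666 FPKM, held 12.8% of the FPKM sum and 4.07% of reads. Core matrix genes held 5.38% of the FPKM sum (5.37 to 5.39) and 7.81% of reads (7.80 to 7.82). Other secreted proteins (proteases and inhibitors, growth factors and chemokines, complement and carriers) held 2.81% of the FPKM sum and 2.86% of reads, so that matrix and secreted genes came to 8.19% and 10.7%. Actins and actomyosin genes held 3.45% of the FPKM sum, translation factors 2.59%, chaperones with the ubiquitin-proteasome system 2.46%, and endoplasmic reticulum folding and transport genes 2.37%. Ferritin and metal-binding genes held 2.32% with only 5 genes, the lysosome 2.07%, the respiratory chain with ATP synthase 2.02% and glycolysis 1.41%. Genes in none of the classes held 55.1% of the FPKM sum. The median listed gene of the core matrix class had 2.21 FPKM, under the 5.49 FPKM of all listed genes. Its share came from a few genes, since 5 of its 202 listed members held 50.4% of it.

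**Figure D2:**
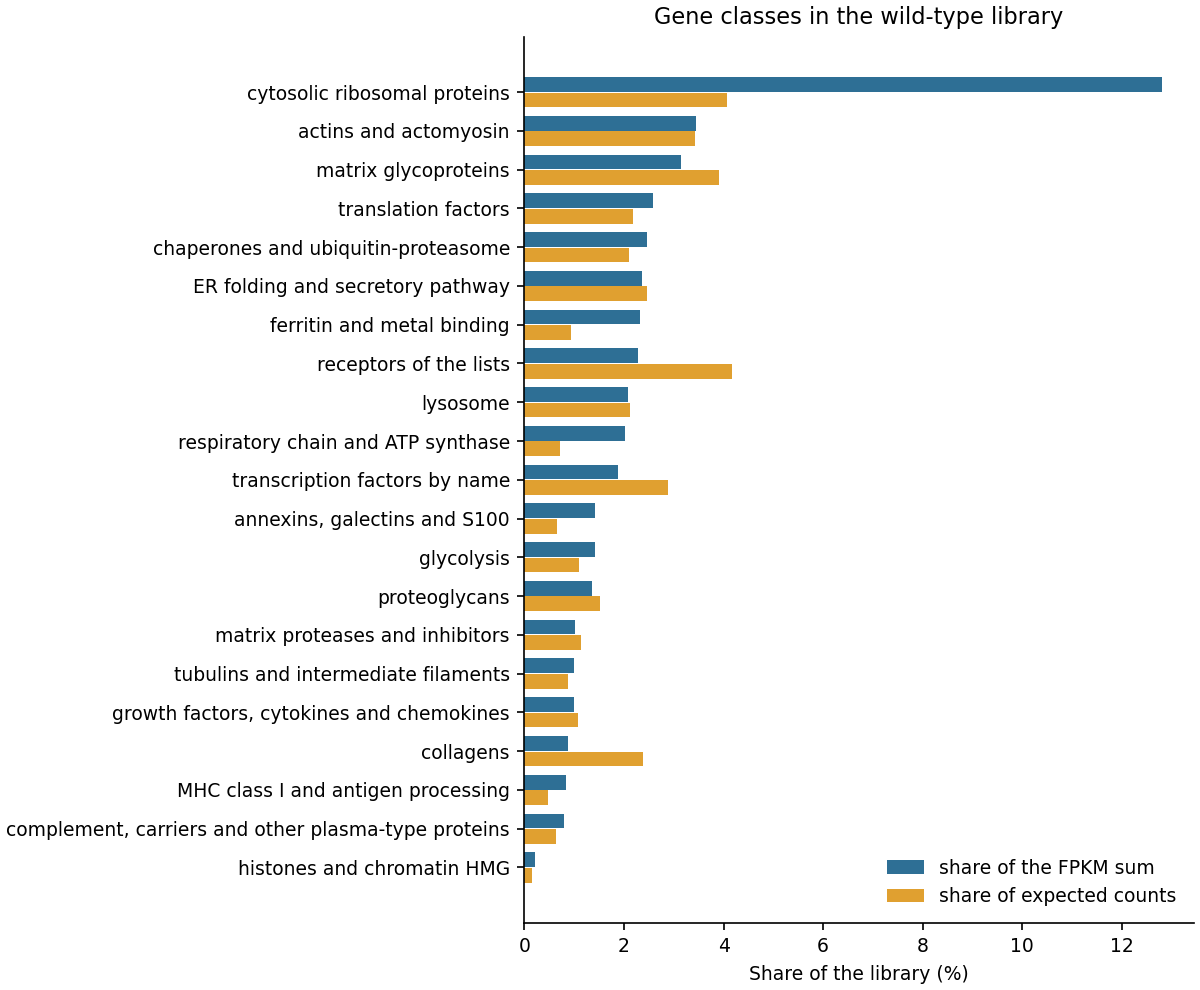
Share of the FPKM sum (blue) and of expected counts (orange), in percent, for gene classes of the wild-type library. Ribosomal proteins hold 12.8% of the FPKM sum and 4.07% of reads, and collagens hold 0.878% and 2.37%. Receptors and transcription factors are sets that can overlap the other classes.

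Of 234 annotated core matrix genes, 202 were listed, 113 had at least 1 FPKM and 38 had at least 100. Collagens made the smallest of its 3 classes by FPKM, with 0.878% of the sum. By reads they held 2.37%, more than the 1.52% of the proteoglycans. Of 40 annotated collagen genes 35 were listed, 20 of them with at least 1 FPKM. Basement membrane collagen was the leading type. Col4a1 had 1154 FPKM (1148 to 1159) and Col4a2, its usual partner chain, had 628 FPKM (624 to 632), a ratio of 1.84 (1.82 to 1.85). Their annotated ends overlap on chromosome 8, and the table does not say on which strand reads were counted. The other type IV chains stood much lower, Col4a5 at 16.5 FPKM and Col4a3, Col4a4 and Col4a6 at or below 0.08 FPKM.

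Among fibril-forming chains, 5 of 11 had at least 100 FPKM and 8 had at least 1. Col1a1 led with 588 FPKM, ahead of Col3a1 of type III collagen with 384 FPKM, Col5a2 of type V with 311, Col1a2 of type I with 186 and Col5a1 of type V with 127. Col1a1 was thus 3.16 times Col1a2 by FPKM (3.11 to 3.21), and Col4a1 was 1.96 times Col1a1 (1.94 to 1.98). Col14a1, a collagen that sits on fibril surfaces, had 222 FPKM. Col6a1, Col6a2 and Col6a3, which form the microfilaments of type VI collagen, had 70.1, 46.6 and 21.2 FPKM. Cartilage-type chains were at the foot of the list, with Col11a1 at 0.81 FPKM and Col2a1 at 0.02 FPKM.

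Of 11 laminin chains, which form the other network of basement membranes, 6 had at least 1 FPKM. Lamc1 had 211 FPKM and Lamb1 had 121 FPKM, while the alpha chains, the variable subunit, were lower: Lama1 had 27.7 FPKM, Lama5 26.8, Lama2 3.92 and Lama4 0.63. Lamc1 exceeded Lama1, the highest alpha chain, 7.60 times by FPKM (7.41 to 7.81). Nid1, the nidogen that links laminin to type IV collagen, had 323 FPKM, and Hspg2, the heparan sulfate proteoglycan perlecan, had 122 FPKM. Tinagl1, a basement membrane glycoprotein, had 1232 FPKM. Among these basement membrane genes the laminin alpha chains had the lowest values.

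In the proteoglycan class 5 genes held 99.0% of the sum. These were the small leucine-rich genes Dcn, Bgn, Prelp and Lum, and the perlecan gene Hspg2. Dcn exceeded Bgn 1.25 times by FPKM (1.24 to 1.26) and Lum, the fibril-spacing lumican, 15.9 times (15.6 to 16.3). By reads, Dcn was 0.962 times Bgn. Prelp, a leucine-rich protein that anchors basement membrane to connective tissue, had 849 FPKM (843 to 855), Lum had 164 FPKM and Ogn (osteoglycin) had 29.4 FPKM. Glycoproteins with more than 200 FPKM included Mfge8, a bridging protein for dying cells, with 650 FPKM, Ecm1 with 612 and Ccn2, the connective tissue growth factor, with 369. Emilin1 of elastic fibres had 251 FPKM, Igfbp3, a carrier of insulin-like growth factors, had 239, Postn (periostin) had 238 and Spon2 had 205. Fn1, fibronectin, was lower than these at 166 FPKM, and Eln, elastin itself, had 3.46 FPKM.

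Of 26 enzymes and chaperones that fold and crosslink collagen, 24 had at least 1 FPKM and 8 had at least 100, and their median was 49.2 FPKM against 5.49 for all listed genes. Serpinh1, the collagen chaperone HSP47, had 745 FPKM, and P4hb, a subunit of prolyl hydroxylase, had 565 FPKM. Pcolce, which speeds removal of the procollagen tail, had 346 FPKM. Loxl2 was the leading crosslinking oxidase with 302 FPKM, and Lox, the founding member, had 41.5 FPKM. Ppib and Crtap, partners in prolyl modification, had 248 and 134 FPKM. The folding side of collagen production was thus broadly present, and only Adamts3 (0.73 FPKM) and Colgalt2 (0.33 FPKM) were under 1.

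Matrix-degrading enzymes were led by 1 gene. Of 17 matrix metalloproteinases, 13 had at least 1 FPKM and 3 had at least 100. Mmp3, stromelysin 1, had 598 FPKM (591 to 605) and made up 58.7% of the list's sum, ahead of its close relative Mmp10 with 121 FPKM, the membrane-bound Mmp14 with 116 and the gelatinase Mmp2 with 99.9. Some reads were divided between similar transcripts for Mmp3, so its value carries that uncertainty. The collagenase Mmp13 had 20.7 FPKM, the gelatinase Mmp9 had 0.03 FPKM and Mmp7 was not listed. The inhibitors stood in the order Timp3 with 345 FPKM, Timp2 with 200 and Timp1 with 141, and Timp4 was not listed. Timp3 exceeded Timp1 2.45 times by FPKM (2.36 to 2.54) and 13.1 times by reads. The 3 listed inhibitors together had 686 FPKM against 1019 FPKM for the 16 listed metalloproteinases. By reads the order was the reverse, with 0.248% of the library for the inhibitors and 0.217% for the metalloproteinases.

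**Figure D3:**
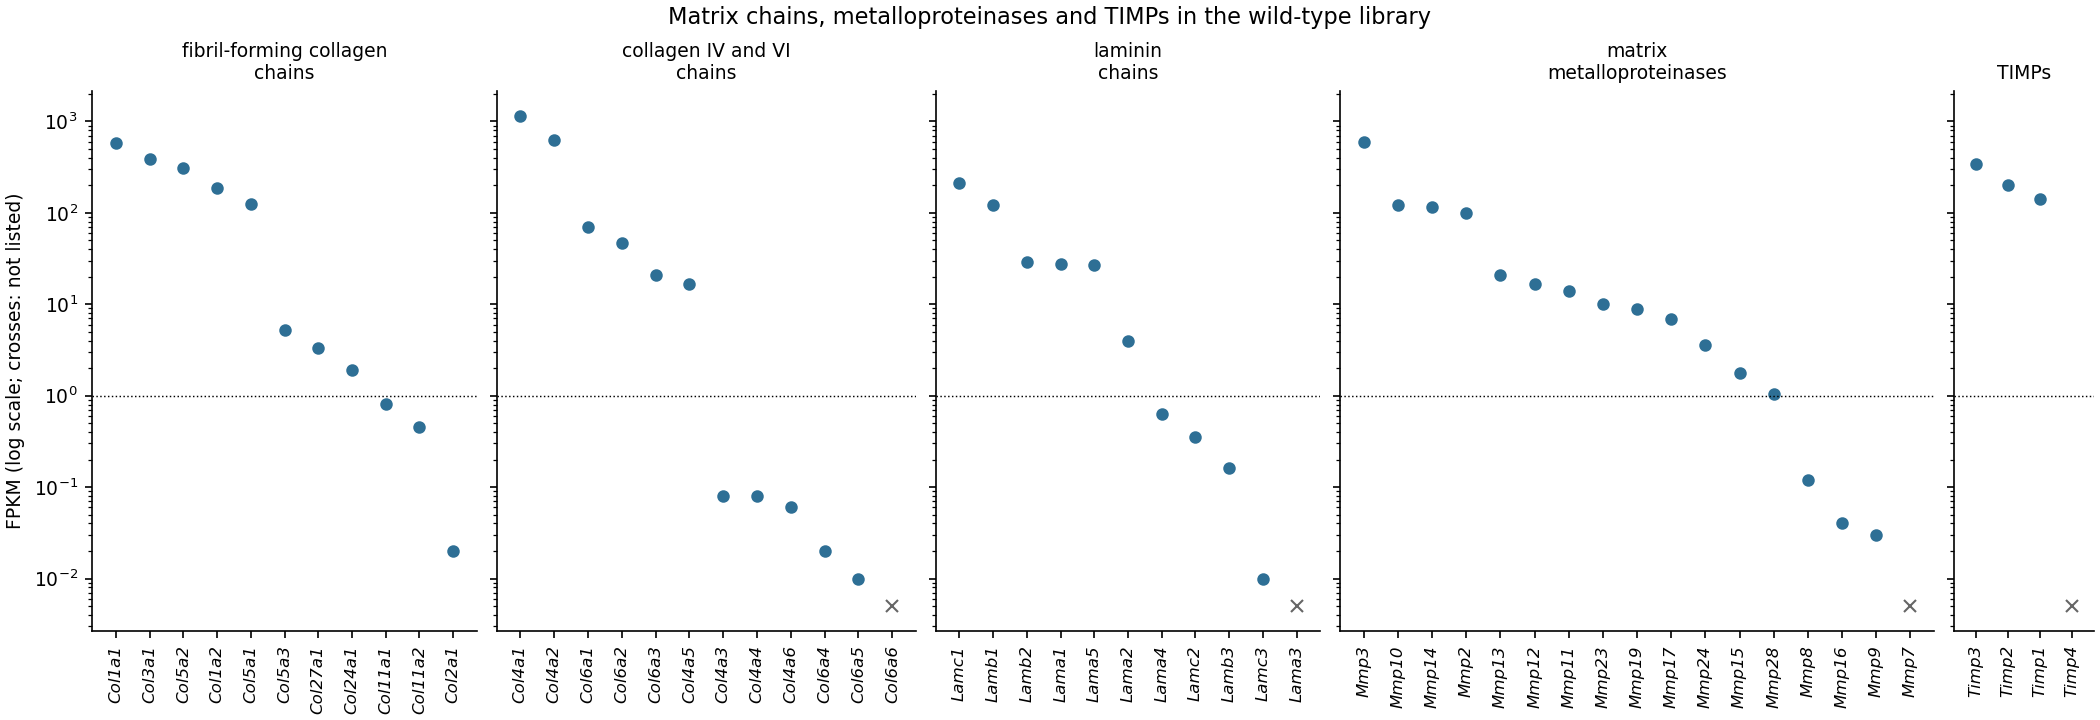
FPKM on a log scale for every collagen and laminin chain of the lists, every matrix metalloproteinase and every TIMP in the wild-type library, each panel in falling order. Crosses mark genes that the table does not list, and the dotted line marks 1 FPKM. Each family has members above 100 FPKM, and every family but the TIMPs also has listed members below 1 FPKM.

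Other protease systems had their inhibitors well up the ranking too. Cst3, the cathepsin inhibitor cystatin C, had 1053 FPKM and Serping1, the inhibitor of complement C1, had 419 FPKM. Among 21 genes of the plasminogen and clotting systems, 14 had at least 1 FPKM. The surface side of that list was highest: Anxa2, a plasminogen receptor subunit, had 600 FPKM, its partner S100a10 had 207, and Thbd, the thrombin receptor thrombomodulin, had 255. The activators were lower, with Plau at 15.8 FPKM and Plat at 13.6 FPKM, as was their receptor Plaur at 19.9. Of the circulating proteins in that list, Plg (plasminogen) had 0.03 FPKM and F2 (prothrombin) 0.38 FPKM, while Pros1, the anticoagulant protein S, had 96.7 FPKM.

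Among secreted plasma-type proteins, Apoe, the lipid carrier apolipoprotein E, had 435 FPKM. The lectin arm of complement was represented by Masp1, its protease, with 418 FPKM, Fcna (ficolin A) with 233 and Colec11, a soluble collectin, with 94.4. Selenop, the selenium carrier, had 227 FPKM. The complement genes C1ra and C2 were lower at 42.3 and 41.2 FPKM.

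Growth factors, cytokines and chemokines held 1.0% of the FPKM sum, and 96 of 178 listed members had at least 1 FPKM. Cxcl12, the chemokine that retains blood cell precursors, led with 742 FPKM (735 to 749). Frzb, a secreted Wnt antagonist, had 393 FPKM, and Fstl1, a follistatin-related protein, had 383. Csf1, the macrophage growth factor, had 294 FPKM (290 to 297) and Adm, the vasodilator peptide adrenomedullin, had 284 FPKM. Classical inflammatory cytokines were low, Il6 at 1.44 FPKM, Il1b at 0.22 and Tnf at 0.10, while the monocyte chemokine Ccl2 had 49.4 FPKM.

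Several of these ligands were listed beside receptors at very low levels. Csf1 exceeded its receptor Csf1r, at 1.78 FPKM, 165 times (142 to 193). Cxcl12 exceeded Ackr3, its scavenger receptor at 3.85 FPKM, 193 times (167 to 223), and its signalling receptor Cxcr4 had 0.96 FPKM. Hgf, the hepatocyte growth factor, had 74.8 FPKM and Met, its receptor, 0.82 FPKM, a ratio of 91.2 (76.7 to 109). Kitl, the stem cell factor, had 25.1 FPKM and its receptor Kit 2.70 FPKM. In these 4 systems the ligand gene stood above each receptor gene named here.

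The reverse order was seen for PDGF, endothelin and insulin-like growth factor. Pdgfrb and Pdgfra had 178 and 77.7 FPKM, a ratio of 2.29 (2.24 to 2.34), while the ligand genes Pdgfa and Pdgfb had 33.7 and 0.46 FPKM. Ednrb, an endothelin receptor, had 224 FPKM, which was 9.45 times Ednra (9.03 to 9.89), and the ligand gene Edn1 had 2.66 FPKM. Igf1r and Igf2r had 16.5 and 20.6 FPKM, and Igf1 and Igf2 had 0.49 and 0.56 FPKM. In other systems both sides were well represented: Axl, the receptor for protein S and GAS6, had 264 FPKM beside Pros1 (protein S) with 96.7, and Unc5b, a netrin receptor, had 135 FPKM beside Ntn1 (netrin 1) with 132.

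Some members of the BMP branch were prominent among secreted signals. Bmp10 had 180 FPKM (176 to 185) and Gdf2, which encodes BMP9, had 89.2 FPKM (87.0 to 91.4), a ratio of 2.02 (1.95 to 2.10). By reads the order was the reverse, with a ratio of 0.878. Bmp5 had 99.7 FPKM, Bmp2 18.6, Bmp4 15.6, Bmp6 5.20 and Bmp7 0.52. Eng, endoglin, the co-receptor that binds BMP9 and BMP10, had 633 FPKM (627 to 638) and led all receptors of the lists, whereas Acvrl1, the type I receptor of the same ligands in endothelium, had 0.59 FPKM. Bmpr2 had 17.1 FPKM and Bmpr1a 23.4 FPKM. Smad6 and Id3, known BMP-responsive genes, had 69.0 and 378 FPKM. The relatives of Id3 were lower, Id2 at 58.3 FPKM, Id1 at 26.1 and Id4 at 3.78. A response to BMP was not tested.

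In the TGF-beta system, Tgfb1 had 70.3 FPKM, Tgfb3 22.2 and Tgfb2 7.37. Tgfbr2, the ligand-binding receptor, had 54.9 FPKM, 4.92 times the 11.2 FPKM of Tgfbr1, the signalling partner (4.65 to 5.20). Lrrc32, which holds latent TGF-beta on the cell surface, had 562 FPKM and stood at rank 115, above any TGF-beta family receptor but Eng. Of the integrins that release latent TGF-beta, Itgb5 had 262 FPKM and Itgav 55.7 FPKM, while Itgb6 and Itgb8 had 0.08 and 0.09 FPKM.

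Of 393 receptor names in the lists, 360 were listed, 233 had at least 1 FPKM and 22 had at least 100, and the set held 2.28% of the FPKM sum and 4.16% of reads. P2ry14, the receptor for UDP-glucose, ranked second with 535 FPKM (528 to 542). It held 30.3% of the summed FPKM of 125 G protein-coupled receptors, a list whose median was 0.44 FPKM. Agtr1a, the angiotensin receptor, had 95.01 FPKM and F2r, the thrombin receptor, had 69.4. Next in the ranking were Itgb1 with 458 FPKM, Bsg (basigin) with 376, the endocytic Lrp1 with 336 and the tetraspanins Cd151 and Cd81 with 335 and 330. Itgb1, the common beta chain of collagen and laminin receptors, exceeded its partner Itga1, at 64.5 FPKM, 7.10 times (6.94 to 7.26), and Itga9 at 75.2 FPKM was the highest alpha chain.

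Of 51 receptor tyrosine kinases 31 had at least 1 FPKM, with Axl, Pdgfrb, Fgfr2 (86.2 FPKM) and Ryk (83.9 FPKM) in front. Among cytokine receptors Il6st, the shared signalling chain for the interleukin 6 family, had 159 FPKM and Tnfrsf1a, the main TNF receptor, had 133 FPKM. The 20 pattern recognition receptors were low as a list, with a median of 1.65 FPKM and 3 members not listed. Tlr4, the lipopolysaccharide receptor, had 15.8 FPKM (14.95 to 16.6), its partner Ly96 had 14.8 and Cd14 had 4.73. Cd44, the hyaluronan receptor, had 17.2 FPKM (16.5 to 18.0), so the genes deleted elsewhere in the series stood at ranks 4700 and 4339 in the wild-type cells. Among Notch, Wnt and Hedgehog receptors none reached 100 FPKM, and Lrp5, a Wnt co-receptor, was highest with 58.3 FPKM.

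**Figure D4:**
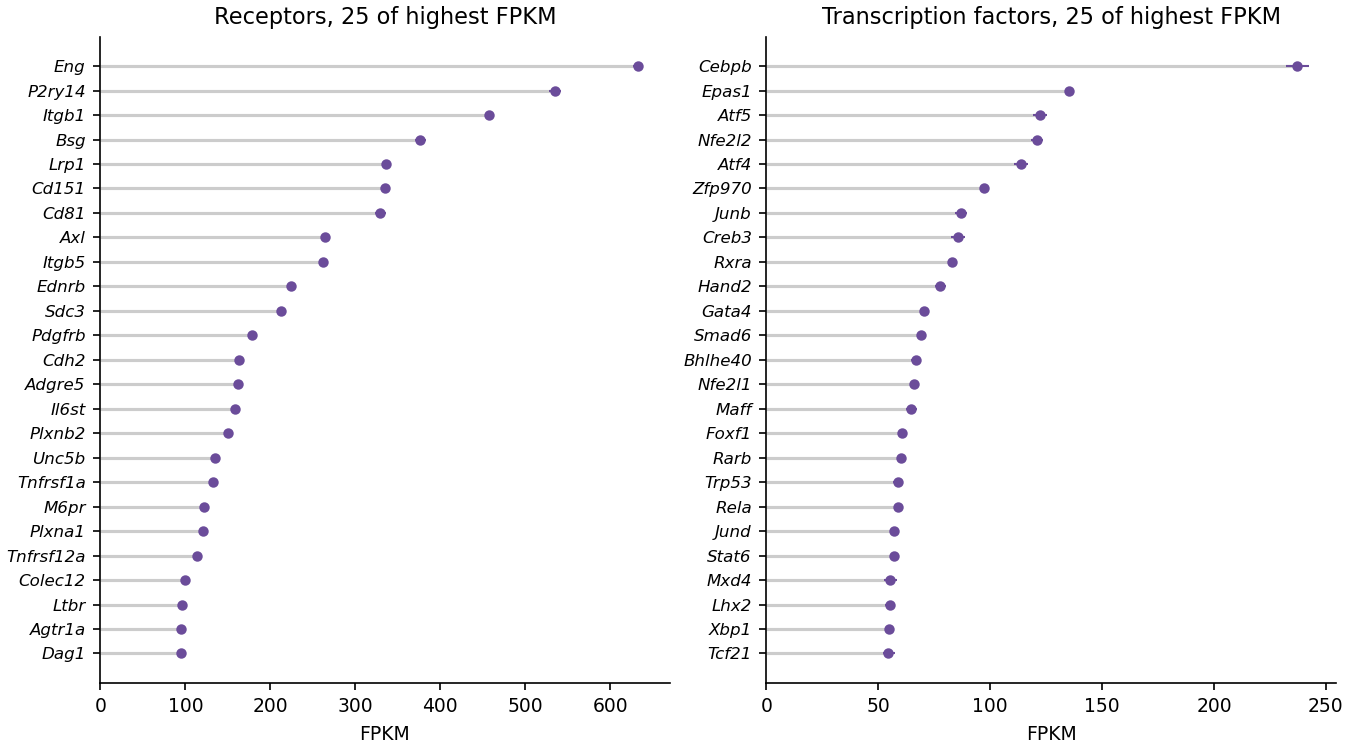
FPKM of the 25 receptors and the 25 transcription factors of highest FPKM in the wild-type library, on linear axes with separate scales. Points are the deposited values and horizontal bars, often smaller than the point, are 95% counting intervals. Eng (633 FPKM) and P2ry14 (535 FPKM) lead the receptors and Cebpb (237 FPKM) leads the factors.

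Transcription factor genes were many and individually scarce. Of 1169 annotated genes taken as transcription factors by name, 996 were listed. Of these 701 had at least 1 FPKM, a share like that of all listed genes (11854 of 16811). Their median was 3.05 FPKM against 5.49 for all listed genes. At least 100 FPKM was reached by 5 of the 996 and by 734 of the 16811. The set held 1.89% of the FPKM sum and 2.88% of reads. Cebpb, a factor of stress and cytokine responses, led with 237 FPKM (232 to 242). Epas1, the hypoxia-inducible factor 2 alpha, had 135 FPKM, Atf5 and Atf4 of the stress response had 122 and 114, and Nfe2l2, the antioxidant regulator NRF2, had 121. Zfp970, sixth at 97.3 FPKM, shares reads with similar zinc finger genes and is uncertain. Junb of the AP-1 family had 86.9 FPKM and Rxra, the partner of many nuclear receptors, had 83.0.

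Factors tied to stellate and mesenchymal identity followed. Of 51 such names 32 had at least 1 FPKM and none had 100. Hand2 had 77.7 FPKM (75.3 to 80.1), Gata4, whose loss in mouse liver mesenchyme is linked to fibrosis, had 70.5, and Foxf1 had 60.7. Lhx2, Tcf21 and Hlx, all factors of liver mesenchyme, had 55.1, 54.5 and 49.8 FPKM, and Nr2f2 had 45.1. Tbx20, better known from the heart, had 43.2 FPKM. Of 26 factors of endothelial, myeloid and epithelial cells, 7 had at least 1 FPKM. Id3 made up 96.7% of that list's sum and is not restricted to those cells. Erg of endothelium had 2.67 FPKM, Spi1 of myeloid cells 1.04 and Hnf4a of hepatocytes 0.02.

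Some genes of vitamin A handling were abundant and others scarce. Of 25 matched names of retinoid and lipid droplet genes, 17 had at least 1 FPKM and 5 had at least 100. The list's median was 6.15 FPKM against 5.49 for all listed genes, and it held 0.469% of the FPKM sum. Aldh1a1, which makes retinoic acid, had 500 FPKM (494 to 507). Bco1, which cleaves beta-carotene, had 446 FPKM, Plin2, a lipid droplet coat protein, 281, and Dhrs3, which reduces retinal, 263. Lrat, which makes the stored retinyl ester, had 215 FPKM (212 to 217). Cyp26b1 was the main retinoic acid-degrading enzyme by level, with 64.7 FPKM against 0.30 FPKM (0.160 to 0.513) for Cyp26a1. Rarb exceeded Rara, at 10.4 FPKM, 5.78 times (5.36 to 6.24). Aldh1a2, a relative of Aldh1a1, had 3.47 FPKM and Rbp4, the retinol carrier of plasma, 0.83. Stra6, the retinol uptake receptor, was not listed, nor were Crabp2, Rbp2 and Plin5.

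Of 14 markers of quiescent stellate cells, 13 had at least 1 FPKM and their median was 78.5 FPKM. Ecm1, Plin2, Lrat and Reln (205 FPKM) were above 200 FPKM, Cygb, the globin cytoglobin, had 142 and Rgs5, a pericyte gene, had 25.04 FPKM. At the bottom were Ngfr with 3.36 FPKM and Gfap, the glial filament protein, with 0.59 FPKM. Markers of the storing state and of the matrix-producing state were thus both present in the same RNA pool.

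Contractile genes were present in a graded way. Of 15 smooth muscle contractile genes, 11 had at least 1 FPKM, 5 of them at least 100. Tagln (transgelin) had 601 FPKM, Cald1 (caldesmon) 265, Myl9 (a regulatory myosin light chain) 173, Mylk (myosin light chain kinase) 87.0 and Smtn (smoothelin) 51.5. The late smooth muscle genes were low: Myh11, the smooth muscle myosin, had 8.01 FPKM, Lmod1 3.44 and Cnn1 (calponin) 0.73. Acta2 was a minor actin by level, since Actb had 1221 FPKM, 5.20 times as much (5.11 to 5.30), and Actg1 had 1077. Part of the Acta2 reads were shared among similar actin transcripts, so its value is uncertain to that extent. Myh9, with 371 FPKM, was 34.0 times its fellow non-muscle myosin Myh10 (32.5 to 35.5). Tpm1 led the tropomyosins with 864 FPKM, ahead of Tpm4 with 421.

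Ferritin dominated iron handling, as Ftl1 made up 62.9% of the summed FPKM of 18 iron genes and exceeded Fth1 2.43 times (2.41 to 2.45). Hmox1, which frees iron from haem, had 862 FPKM, the iron exporter Slc40a1 45.9 and the transferrin receptor Tfrc 28.4. All 22 genes on a list of NRF2 targets and glutathione enzymes had at least 10 FPKM, which 6391 of the 16811 listed genes had, and the list held 1.55% of the FPKM sum. Gstm1 had 1042 FPKM, Gstp1, another glutathione S-transferase, 833, Sqstm1, an autophagy receptor, 826, Prdx1, a peroxidase, 537, Txnrd1, thioredoxin reductase, 373 and Nqo1, a quinone reductase, 192. The core of the antioxidant response element, TGACNNNGC, was found on either strand of the 250 bases in 16.3% of the 80 most abundant genes with a window and in 13.7% of listed genes. Gstm1 and Gstp1 belong to families of similar genes, and the counts of both were fractional, so their split from their relatives is uncertain.

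All 20 proliferation genes had at least 1 FPKM, which 11854 of the 16811 listed genes had. The median of the 20 was 11.7 FPKM against 5.49 for all listed genes. Ccnd2 and Ccnd1, cyclins of the G1 phase, had 129 and 98.5 FPKM and Pcna, the replication clamp, 80.4. Mki67, which encodes Ki-67, a marker of cycling cells, had 5.26 FPKM. Of the inhibitors of the cell cycle, Cdkn1a (p21) had 303 FPKM (298 to 308), Cdkn2b 29.2 and Cdkn2a 8.96. The cyclin D and p21 genes thus stood well above Mki67 and above the list's median, while Pcna was close to Ccnd1. Mki67 itself was under that median.

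Traces of other liver cells were small. The 74 markers taken as defining for endothelial, macrophage, neutrophil and monocyte, dendritic, lymphocyte, hepatocyte, bile duct, erythroid and mesothelial cells had 54 listed members. These summed to 242 FPKM, 0.0555% of the FPKM sum (plus or minus 0.0012), and 19 had at least 1 FPKM. Spp1, osteopontin, known in bile duct cells and also in activated stellate cells and macrophages, made up 125 FPKM of this. Without it the sum was 117 FPKM, 0.0268%. Outside this sum, Schwann cell and neuron markers had 3.04 FPKM, adipocyte markers 0.05 FPKM and mast cell and platelet markers 12.8 FPKM, of which Pf4, a platelet chemokine, gave 9.46 FPKM. The part of such cells in any gene above was not tested.

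After the depletion with Cd11b beads, macrophage markers summed to 49.9 FPKM over 12 names. Lyz2 (lysozyme) had 31.4 FPKM and Cd68 11.7, whereas the resident macrophage genes Adgre1, Clec4f and Marco had 0.45, 0.16 and 0.46 FPKM and Timd4 was not listed. Itgam, which encodes Cd11b, had 0.37 FPKM. Endothelial markers summed to 38.04 FPKM, with all 10 listed and Cdh5, the endothelial cadherin, at 12.3 FPKM (11.6 to 13.03), Pecam1 at 8.09 and Stab2 of sinusoidal endothelium at 2.04. Plvap, a protein of endothelial fenestrae that was named after its value was seen, had 577 FPKM (570 to 583), far above every gene of that list. Eng and Thbd, at 633 and 255 FPKM, are also known from endothelium.

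Hepatocyte markers summed to 11.5 FPKM, of which Alb (albumin) gave 9.14 FPKM (8.31 to 10.0), while Tat and Asgr1 were not listed. Among bile duct markers other than Spp1, Krt19 had 2.86 FPKM and Epcam was not listed. Lymphocyte markers summed to 0.56 FPKM, none of the 11 reached 1 FPKM, and 4 of 5 erythroid markers were not listed. Mesothelial markers summed to 4.95 FPKM and included Krt19. Portal fibroblast markers were higher, at 51.2 FPKM, of which Fbln2 (fibulin 2) gave 41.6 FPKM (81.3%), against Eln with 3.46 and Thy1 with 1.62.

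**Figure D5:**
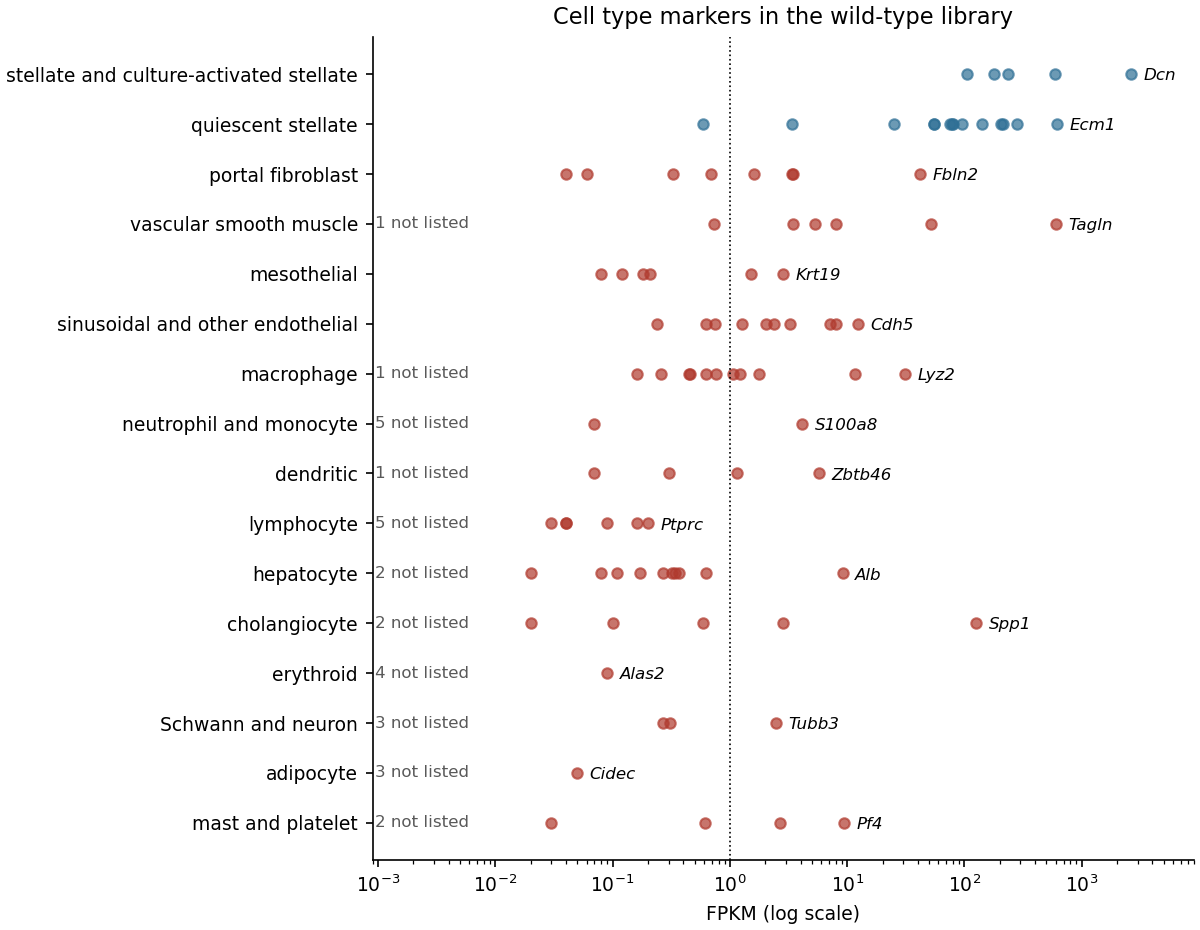
FPKM on a log scale of the markers of each cell type in the wild-type library, 1 point per listed gene, with the highest gene of each list named and the number not listed at the left. Blue marks the stellate lists and red all others, and the dotted line marks 1 FPKM. The 5 culture-activated stellate markers lie between 105 and 2614 FPKM, and apart from Tagln, Smtn, Fbln2, Spp1, Lyz2, Cd68 and Cdh5 the red points lie below 10 FPKM.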

How the data were processed

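RNA sequencing of 1 wild-type library was used. For each gene the authors deposited an expected count (RSEM's estimate of its reads, often fractional), an FPKM value and a transcript length. The submitters' processing notes name RSEM and mm10, with no version. Per the file headers genes are Entrez numbers with RefSeq transcripts. The deposited table lists genes with FPKM of at least 0.01, so a missing gene is called not listed and has no floor.

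Of 16811 genes, 16771 were matched to symbols of RefSeq GRCm38.p6, and the 40 others held 0.230% of reads. FPKM recomputed from count and length, with a length reduction of 36.0 bases fitted to the table, lay within 2% for 100% of 11756 genes. RSEM divides reads between similar transcripts: 3662 genes with 19.7% of reads had fractional counts and are uncertain where they have near-identical copies. The sources used here do not state how strand was handled. No mitochondrially encoded gene is listed. The series text speaks of triplicates, but 1 library per genotype was supplied here.

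Genes were ranked by FPKM and by share of the expected counts. Classes and lists were chosen with earlier results of these data known, and the class patterns were adjusted after values were seen. Named genes are the 30 highest by each rank, the given markers, the leading members of each list (up to 6, or 15 for receptors and transcription factors) and markers of other cells; some further members were named after their values were seen. Intervals are exact Poisson for counts, exact binomial (Clopper-Pearson) for shares of reads and exact conditional binomial for ratios, on expected counts rounded to whole numbers and carried to the FPKM scale, all at 95%. Intervals of shares of the FPKM sum propagate the Poisson error of the counts. The calculations were tested on simulated data. Python 3.11.15, numpy 2.4.6, scipy 1.17.1, pandas 2.3.3 and matplotlib 3.10.9 were used. RefSeq upstream windows (250 bases before the start) were available for 13092 of the listed genes, and a gene with several windows counted as holding a motif if any window did. The knockout libraries were not used. Some members of the lists are not reported here.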

Additional observations from a re-analysis of the deposited data

How the results depend on the processing

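No paired analysis was possible because 1 library was used and nothing was compared between libraries; for the same reason no replicate could be left out. Each share was recomputed by expected counts, in protein-coding genes, in genes with at least 1 FPKM, with FPKM recomputed on full lengths, and without ribosomal protein, predicted and pseudogene names. In that order the 100 most abundant genes held 19.7%, 25.5%, 25.2%, 24.8% and 24.4% (25.1% as reported), and core matrix genes 7.81%, 5.46%, 5.39%, 5.44% and 6.30% (5.38%). The transcription factor share was 2.88%, 1.92%, 1.88%, 1.91% and 2.21% (1.89%). Matrix and secreted genes held 10.7%, 8.31%, 8.26% and 9.58% (8.19%), and receptors 4.16%, 2.32%, 2.32% and 2.67% (2.28%), leaving out the 1 FPKM setting, under which both moved by less than their counting interval. Markers of other cells held 0.0426% by counts, 0.0535% above 1 FPKM and 0.0649% without ribosomal names (0.0555%). The leading 50% of the reads lay in 837 genes, against 506 for the FPKM sum, a count that lay between 491 and 644 in the other settings. Genes past 1 FPKM numbered 11199 to 11819 in the other gene sets and lengths; its recount by reads and above 1 FPKM can give no other value and was not run, and thresholds of 0.1 and 5 FPKM gave 14730 and 8675. In all, 27 of 40 alternatives moved a value by more than its counting interval or 1.5 times. For this comparison the interval of a share was exact binomial, with the FPKM share taken as a share of reads. The counting interval is narrow at this depth and says nothing of variation between animals or cultures. FPKM favours short transcripts and reads favour long ones.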

Other observations

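Among abundant genes outside the classes above, several encode surface and vesicle proteins. App, the amyloid precursor protein, had 487 FPKM, Cd99, an adhesion protein, 463 FPKM, and Ifitm3 and Ifitm2, interferon-induced membrane proteins, 393 and 297 FPKM. Tmem176b and Tmem176a, neighbouring membrane protein genes, had 444 and 337 FPKM. Metabolic genes in the same range were Ckb (brain-type creatine kinase) with 580 FPKM, Aldh2 (acetaldehyde oxidation) with 420, Hsd11b1, which activates glucocorticoids, with 329, and Ass1 of the urea cycle with 292. Gpx4, which reduces lipid peroxides, had 548 FPKM and Mif, a cytokine that many cells hold, 571 FPKM. Cryab, a small heat shock protein, had 331 FPKM and Ankrd1, a target of the YAP cofactor, 264 FPKM, beside Ccn1 and Ccn2, which are also YAP targets, with 192 and 369 FPKM.

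Noncoding genes formed a small share. The ribosomal RNA gene Rn28s1 had 437 FPKM and 0.208% of reads, which was rank 29 by reads. The 947 genes annotated as lncRNA held 0.602% of the FPKM sum and 0.492% of reads. At least 1 FPKM was reached by 350 of these lncRNA genes, and their highest value was 396 FPKM. On a list of 22 lncRNA genes with a known name, Neat1, the scaffold of nuclear paraspeckles, led with 153 FPKM. Malat1 had 73.1 FPKM, Norad 43.9 and Carmn, the host of a smooth muscle microRNA cluster, 7.48. The developmental imprinted RNAs H19 and Meg3 had 0.16 and 0.81 FPKM. Hairpin genes of microRNAs, 67 in all, held 275 reads, with a median of 2 reads, too few to put them in order.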
